A study of Mus musculus with 52 samples.

Results

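Regulatory T cell genes and Il10 were followed across the treatment groups of a mouse tumor experiment. The 9 genes were taken by name from a table of 27525 genes: Foxp3, Ikzf2 and Ikzf4 (transcription factors), Il2ra, Ctla4, Icos, Ccr8 and Lrrc32 (surface proteins) and Il10 (a secreted cytokine). All 9 were found in the table and passed the filter on low values in each comparison. The tumors grew from KPC cells, a pancreatic cancer line derived from a Pdx1-Cre mouse with the allele Trp53 LSL.R172H/+ among others, injected under the skin of syngeneic male C57BL/6NHsd mice that were 8 to 10 weeks old. The 4 groups held 8 tumors each and, by their labels, differed only in treatment. Untreated tumors received no agonist. ADU-S100, a STING agonist, was injected into the tumor at 2 µg on day 0. Anti-LTβR, the agonistic antibody 4H8 against the lymphotoxin-β receptor, was injected intraperitoneally 4 times until day 10. Combination tumors received both agents. All tumors were collected on day 14 and sequenced singly as bulk poly(A) RNA-seq. The paper describes this sequencing both as 1 experiment and as 2 experiments combined. The labels give all tumors of the 4 groups the same experiment number. The model is 1 tumor line at an ectopic site in hosts with an intact immune system, and each library mixes tumor, stromal and immune RNA.

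Regulatory T cells are CD4+ T cells that restrain other immune cells, and Foxp3 is the transcription factor that defines them. They carry the high-affinity interleukin-2 (IL-2) receptor, whose α chain (CD25) is encoded by Il2ra, and depend on IL-2 made by other T cells. They also act through the checkpoint receptor CTLA-4, which removes CD80 and CD86 from antigen-presenting cells, and through TGF-β1 displayed on the surface protein GARP, the product of Lrrc32. IL-10 is an anti-inflammatory cytokine made by some regulatory T cells and also by macrophages, B cells, mast cells and other helper T cells. Of the members, Il2ra, Ctla4 and Icos are also switched on in conventional T cells after activation, and Lrrc32 is also made by endothelial cells and platelets.

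RefSeq promoter windows (GRCm38.p6, 250 bases before to 50 bases after a gene's start) were at hand for 4 of the 9 members, Foxp3, Il2ra, Ctla4 and Ccr8. They are shown, for Foxp3 at both start sites, because these 4 genes were all higher in combination than in untreated tumors. All lie on the + strand, at chrX:7579426-7579725, chrX:7580233-7580532, chr2:11642542-11642841, chr1:60908775-60909074 and chr9:120091883-120092182. Capitals mark GGAAA, the core bound by NFAT factors, or the STAT motif TTCNNNGAA, on either strand; in the second Foxp3 window the 2 overlap.
Foxp3, first start site: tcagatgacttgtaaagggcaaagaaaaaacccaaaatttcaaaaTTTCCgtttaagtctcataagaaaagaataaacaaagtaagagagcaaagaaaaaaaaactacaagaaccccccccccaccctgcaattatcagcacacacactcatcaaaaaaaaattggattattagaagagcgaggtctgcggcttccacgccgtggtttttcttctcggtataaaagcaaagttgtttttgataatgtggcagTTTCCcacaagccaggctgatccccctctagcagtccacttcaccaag
Foxp3, second start site: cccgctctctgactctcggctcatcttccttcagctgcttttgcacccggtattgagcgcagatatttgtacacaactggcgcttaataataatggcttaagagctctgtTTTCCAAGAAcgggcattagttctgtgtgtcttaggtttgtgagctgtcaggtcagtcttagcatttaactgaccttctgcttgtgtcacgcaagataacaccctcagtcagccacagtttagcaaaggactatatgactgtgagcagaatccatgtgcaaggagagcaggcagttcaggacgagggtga
Il2ra: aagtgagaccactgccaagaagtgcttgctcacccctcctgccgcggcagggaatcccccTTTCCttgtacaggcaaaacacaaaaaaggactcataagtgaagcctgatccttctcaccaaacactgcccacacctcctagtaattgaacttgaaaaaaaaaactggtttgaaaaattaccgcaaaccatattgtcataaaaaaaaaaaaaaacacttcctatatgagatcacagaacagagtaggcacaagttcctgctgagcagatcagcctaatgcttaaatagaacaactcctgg
Ctla4: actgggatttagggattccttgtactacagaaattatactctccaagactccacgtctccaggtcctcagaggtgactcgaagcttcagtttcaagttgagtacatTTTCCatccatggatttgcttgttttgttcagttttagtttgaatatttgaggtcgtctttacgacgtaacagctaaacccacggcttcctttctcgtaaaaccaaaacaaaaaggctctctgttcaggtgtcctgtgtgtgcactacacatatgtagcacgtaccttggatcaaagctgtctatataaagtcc
Ccr8: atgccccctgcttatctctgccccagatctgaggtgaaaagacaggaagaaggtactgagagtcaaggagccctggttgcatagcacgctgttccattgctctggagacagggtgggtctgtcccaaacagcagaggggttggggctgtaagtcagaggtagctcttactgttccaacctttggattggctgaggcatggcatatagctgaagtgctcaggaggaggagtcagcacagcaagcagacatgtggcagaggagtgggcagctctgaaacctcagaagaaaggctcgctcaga
The NFAT core lay 2 times in the first Foxp3 window and 1 time in each of the second Foxp3, Il2ra and Ctla4 windows, and a window of this length held it in 61.3% of 32851 mouse promoters. The STAT motif was in the second Foxp3 window alone of the 5 shown, and 8.3% of all promoters held it. Neither the AP-1 motif TGANTCA (7.81% of all promoters) nor the RUNX motif TGTGGT (16.8%) was in any of the 5, and the Ccr8 window held none of the 4 motifs.

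Depth was similar across the 32 libraries, with 12762453 to 15591986 reads recovered per tumor and 1 read worth 0.942 to 1.22 normalized counts. Each tumor's median correlation with the others of its group lay between 0.935 and 0.979 over genes. Keratins of the tumor epithelium were present in all tumors (Krt8, 3372 to 12368 normalized counts), as was the T cell gene Cd3e (67.3 to 289). Foxp3 was read in all 32 tumors, at 21.7 to 88.6 normalized counts, where counting error alone gives an SD near 12.5% of the mean in combination tumors and 17.8% in ADU-S100 tumors. For Ccr8 it came to 23.5% of the mean in untreated tumors. A change of a gene in bulk tumor RNA cannot tell more cells that express it from more RNA per cell.

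Combination tumors were first compared with untreated tumors, which gives the change with both receptors stimulated. In combination tumors 6 of the 9 members were higher than in untreated tumors, namely Foxp3, Il2ra, Ctla4, Ccr8, Lrrc32 and Icos, and 1, Il10, was lower. Ikzf2 and Ikzf4 did not pass the test. The threshold was a false discovery rate of 0.05 in limma over all genes, and 43.2% of the 16909 genes tested passed it (19.6% higher and 23.6% lower). Il2ra also passed a fold change of 2, as did 5.16% of all genes in the higher direction. The median log2 difference was 0.53 over the members and −0.02 over all genes.

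**Figure D1:**
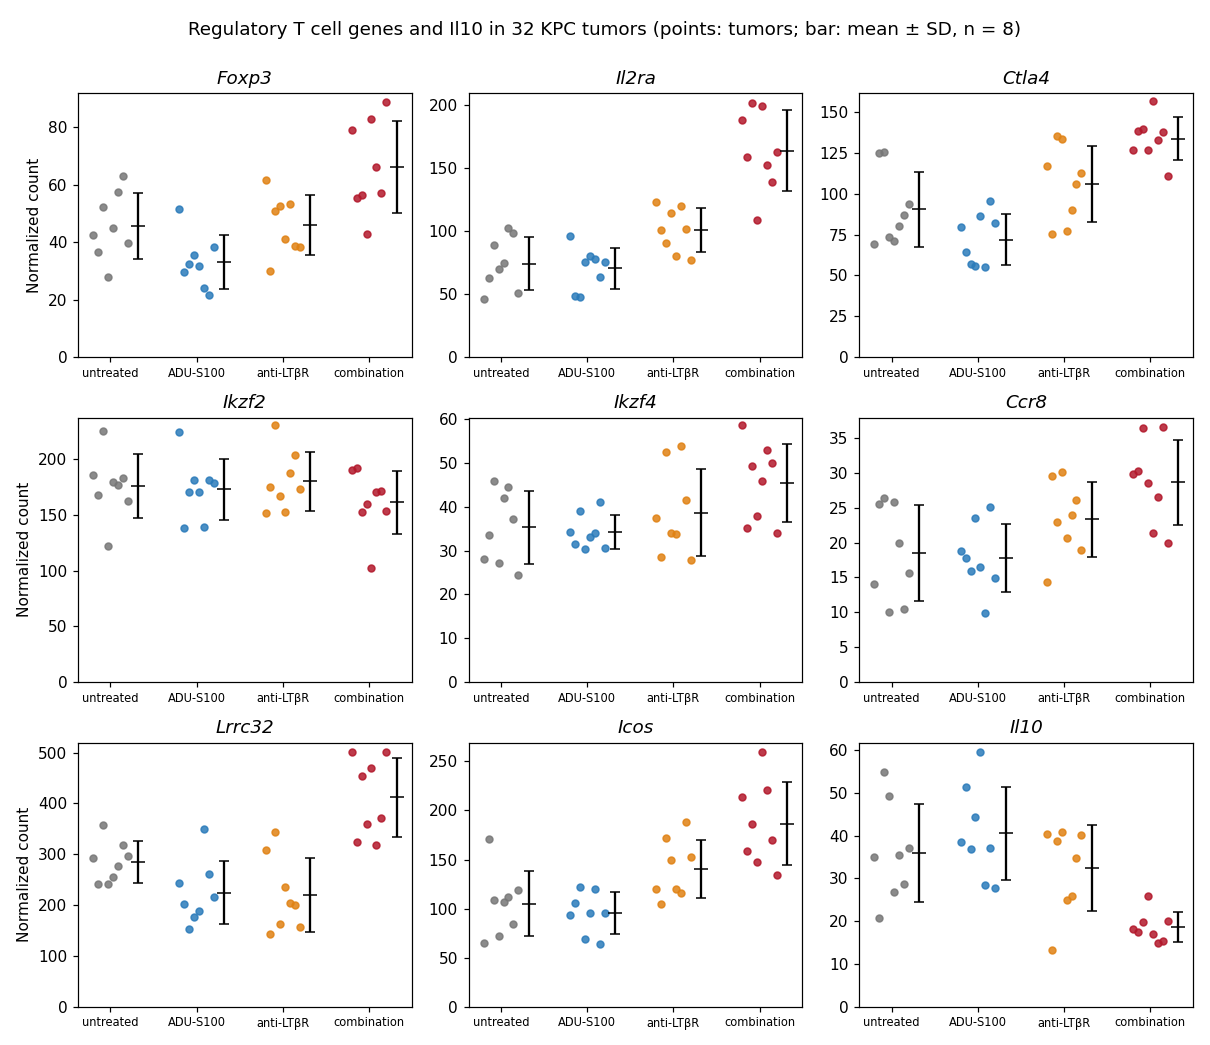
Normalized counts of the 9 genes in each of 32 tumors, 8 per group, with 1 panel per gene and its own vertical axis from 0; points are tumors and the black bar is the mean ± SD. All 8 combination tumors lay above every untreated tumor for Il2ra, and combination tumors had the lowest mean for Il10.

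Foxp3 (GRCm38 chromosome X, 7573644 to 7595245, + strand) was at 27.9 normalized counts in the lowest untreated tumor, 43.7 at the median and 62.8 in the highest. The values in combination tumors were 42.8, 61.6 and 88.6. The groups overlapped, and 4 of 8 combination tumors exceeded the highest untreated one. The mean rose from 45.5 ± 11.5 (SD, n = 8) to 66.0 ± 16 (SD, n = 8), a log2 difference of 0.53 ± 0.18 (SE, adjusted p = 0.0239). Anti-LTβR tumors (30.0, 46.0 and 61.7) lay within the untreated range, and ADU-S100 tumors (21.7, 31.9 and 51.5) reached lowest. Ranked by mean, Foxp3 was lowest with ADU-S100, then in untreated, anti-LTβR and combination tumors, and only the last step passed the test between neighbours (adjusted p = 0.313, 0.955 and 0.0338). Of the genes that overlap Foxp3 in the GENCODE annotation, Flicr, a long non-coding RNA, lies on its strand, and Ppp1r3f, Gm36995 and Ccdc22 lie on the other. The libraries were stranded, but whether the counting used strand is not given in the sources used here.

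Ikzf2 and Ikzf4 encode Helios and Eos, Ikaros family factors that act beside FOXP3, and Helios is also made by other T cells and by cells outside the T lineage. Ikzf2 was at 123, 178 and 226 normalized counts (lowest, median and highest) in untreated tumors and at 102, 165 and 192 in combination tumors. The ranges lay largely over each other. The log2 difference was −0.13, with a 95% interval from −0.40 to 0.15 (adjusted p = 0.450), so an increase the size of the one in Foxp3 lay outside the interval. The order by mean was combination, ADU-S100, untreated and anti-LTβR, and no step between neighbours passed the test (adjusted p = 0.509, 0.949 and 0.822). Ikzf4 was at 24.3, 35.5 and 45.8 in untreated tumors and 34.1, 47.5 and 58.7 in combination tumors, and 5 of 8 combination tumors lay above every untreated one. Its log2 difference of 0.37 (95% interval 0.02 to 0.71) had an adjusted p of 0.0799. That value fell to 0.0488 without untreated tumor 3 and to 0.0456 in a joint fit of all 4 groups.

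Il2ra, the high-affinity IL-2 receptor chain (chromosome 2, 11642807 to 11693193), gave the largest difference among the members. Untreated tumors had 46.1, 72.4 and 102 normalized counts and combination tumors 109, 161 and 202. The groups did not overlap, which held in the higher direction for 4.64% of all genes. The mean rose from 74.3 ± 21 to 164 ± 32, a log2 difference of 1.16 ± 0.17 (SE, adjusted p = 9.69e-05). Anti-LTβR tumors were intermediate (76.9, 101 and 123) and ADU-S100 tumors (47.9, 75.5 and 95.9) lay among the untreated ones. Between neighbours in the order ADU-S100, untreated, anti-LTβR and combination, only the last step passed (adjusted p = 0.897, 0.0640 and 0.00210).

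Ctla4 and Icos are neighbours on chromosome 1 (60887000 to 60915832 and 60977927 to 61000320) and encode an inhibitory and a costimulatory receptor of the CD28 family. Ctla4 was at 69.1, 83.7 and 126 normalized counts in untreated tumors and 111, 135 and 157 in combination tumors. All but 1 of the 8 combination tumors lay above every untreated one, where 8.66% of all genes had 7 or 8 tumors so placed. The log2 difference was 0.59 ± 0.13 (SE, adjusted p = 0.00183). The combination group was also the least spread for Ctla4, with an SD of 9.86% of its mean against 22 to 25.4% in the other groups, and counting error alone gives 8.78%. Icos was at 65.2, 108 and 171 in untreated tumors and 135, 178 and 259 in combination tumors. Here 4 of 8 combination tumors exceeded every untreated one, and the log2 difference was 0.85 ± 0.18 (SE, adjusted p = 0.00140). For both genes the means ran in the order ADU-S100, untreated, anti-LTβR and combination. The adjusted p between neighbours was 0.355, 0.327 and 0.0413 for Ctla4 and 0.792, 0.0904 and 0.0529 for Icos. The processed pseudogene Rpl18-ps1 lies within Ctla4 on the same strand, and other annotated transcripts overlap Icos, Il2ra, Ikzf2 and Ikzf4, so a share of these reads could belong to them.

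Ccr8 encodes a chemokine receptor concentrated on regulatory T cells within tumors, and had the fewest reads of the members in untreated tumors. Untreated tumors had 10.1, 17.8 and 26.5 normalized counts and combination tumors 19.9, 29.2 and 36.6. In 6 of 8 combination tumors the value was above every untreated tumor. The log2 difference was 0.66 ± 0.22 (SE, adjusted p = 0.0240). The steps between neighbours in the order ADU-S100, untreated, anti-LTβR and combination were each within the spread (adjusted p = 0.983, 0.256 and 0.216).

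Lrrc32, which encodes the TGF-β1 anchor GARP, was at 241, 285 and 358 normalized counts in untreated tumors and 318, 413 and 502 in combination tumors. Of the 8 combination tumors, 6 lay above every untreated tumor, and the log2 difference was 0.52 ± 0.12 (SE, adjusted p = 0.00177). With either agent alone the mean of Lrrc32 was below that of untreated tumors, but neither difference passed (adjusted p = 0.0815 for anti-LTβR and 0.293 for ADU-S100). Anti-LTβR tumors had 143, 202 and 344 and ADU-S100 tumors 153, 209 and 350. In 6 of 8 anti-LTβR tumors and 5 of 8 ADU-S100 tumors the value was below every untreated tumor, placings that were not counted over all genes. From lowest to highest mean the order was anti-LTβR, ADU-S100, untreated and combination, and only the step to the combination passed (adjusted p = 0.916, 0.293 and 0.00177). All 5 endothelial genes on the list (Pecam1, Cdh5, Kdr, Tek and Erg) were also higher in combination than in untreated tumors, where 19.6% of all genes were. Their summed levels were 1076 to 1586 in untreated and 1923 to 2748 in combination tumors. In anti-LTβR tumors the same sum was 1234 to 1702, with 2 of the 5 genes higher, against 1203 of 16691 genes. Lrrc32 was not higher there. The part of endothelial RNA in the Lrrc32 difference was not tested.

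Il10 (chromosome 1, 131019845 to 131024974) went the other way. Untreated tumors had 20.7, 35.3 and 55.0 normalized counts and combination tumors 15.0, 17.9 and 25.8. All but 1 of the 8 combination tumors were below every untreated tumor, where 10.1% of all genes had 7 or 8 tumors so placed. The mean fell from 36 ± 11.4 to 18.6 ± 3.42, a log2 difference of −0.87 ± 0.19 (SE, adjusted p = 0.00141). The spread in combination tumors, 18.4% of the mean, was no larger than the counting error of 23.5%. ADU-S100 tumors had 27.7, 37.9 and 59.4 and anti-LTβR tumors 13.4, 36.7 and 40.9. The order by mean was combination, anti-LTβR, untreated and ADU-S100, and only the first step passed (adjusted p = 0.0195, 0.654 and 0.662).

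**Figure D2:**
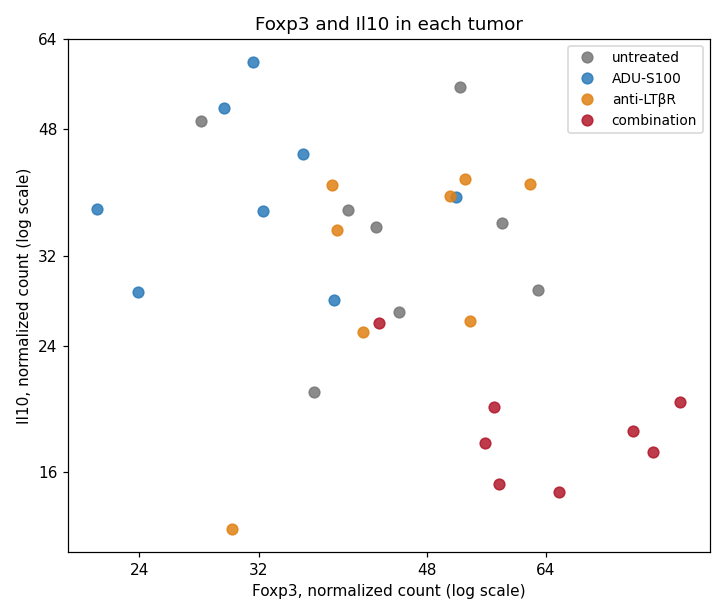
Foxp3 (horizontal) against Il10 (vertical) in each of the 32 tumors, normalized counts on log axes, colored by group. The 8 combination tumors sat to the lower right, with Il10 at 25.8 or less and Foxp3 at 42.8 or more, while 1 anti-LTβR tumor had the lowest Il10 of all (13.4) with Foxp3 at 30.0.

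With a single agent no member passed the test. In anti-LTβR tumors 0 of 9 members were called against 15.3% of 16691 genes (9.4 to 17.4% without 1 tumor). Il2ra (log2 difference 0.47, adjusted p = 0.0640) and Icos (0.45, adjusted p = 0.0904) were nearest on the higher side and Lrrc32 (−0.43, adjusted p = 0.0815) on the lower, all 3 at an unadjusted p under 0.05 (33.5% of all genes). Each of these passed in some fits with 1 tumor left out: Il2ra without untreated tumor 6 or 7, Lrrc32 without anti-LTβR tumor 1 or 3 and Icos without untreated tumor 2, with adjusted p values down to 0.0381, 0.0276 and 0.0311. Il2ra also passed in the joint fit of all 4 groups (adjusted p = 0.0437) and Lrrc32 with the replicate number as a block in the fit (0.0468). Foxp3 differed by 0.02, with a 95% interval from −0.35 to 0.39. In ADU-S100 tumors limma called 0 of 9 members and 0% of 16613 genes, while 14.5% of genes had an unadjusted p under 0.05. Among the members those were Foxp3 (log2 difference −0.45, 95% interval −0.85 to −0.06, adjusted p = 0.313) and Lrrc32 (−0.38, 95% interval −0.67 to −0.08, adjusted p = 0.293). edgeR on recovered reads also called none of the 9 in either comparison, and DESeq2 called none in anti-LTβR tumors. Between ADU-S100 and untreated tumors DESeq2 gave no adjusted p for any of the 9, so it could not call them there. Over all genes edgeR and DESeq2 called 1 and 39 between ADU-S100 and untreated tumors.

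**Figure D3:**
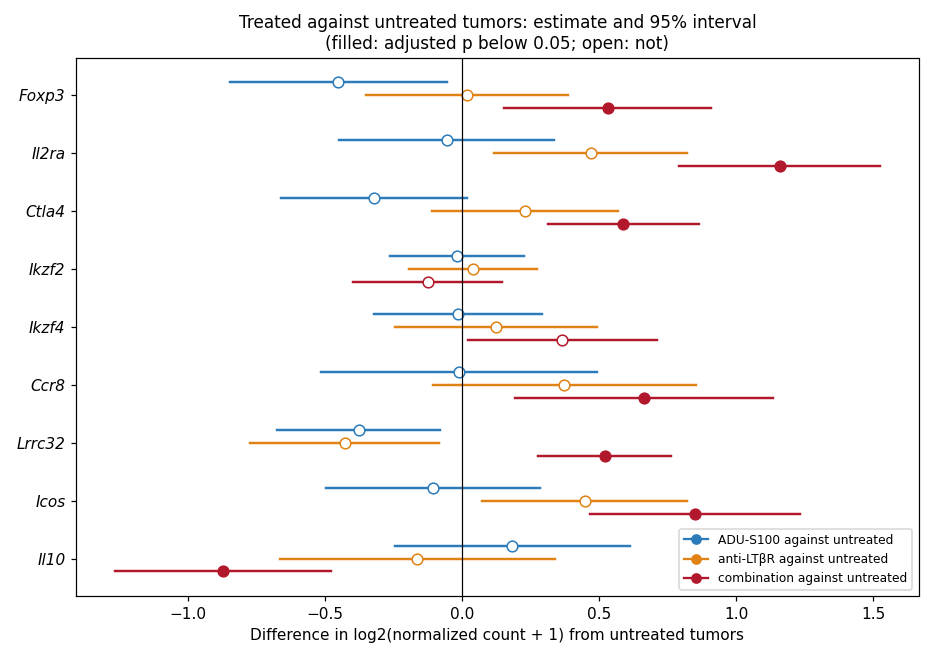
Log2 difference of each gene between treated and untreated tumors, with its 95% interval; filled circles have an adjusted p below 0.05 and open circles do not. The filled circles were all of the combination, 6 above 0 and Il10 below, and the 3 comparisons share the untreated tumors.

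Against ADU-S100 alone, combination tumors had 8 members called (46.2% of 16811 genes passed, 20.2% higher and 26% lower), with Ikzf2 the exception. Il2ra, Ctla4 and Icos were above, and Il10 below, every ADU-S100 tumor in all 8 combination tumors, a placing shared by 5% of genes in the higher direction and 6.96% in the lower. Foxp3 was higher by 0.98 ± 0.18 on the log2 scale (SE, adjusted p = 0.000371), from a mean of 33.1 ± 9.30 to 66.0 ± 16. Il2ra (1.22) and Il10 (−1.06) exceeded a fold change of 2, which with the test 6.17% of genes did.

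Against anti-LTβR alone, 5 members were called (26.6% of 16932 genes passed, 11.3% higher and 15.3% lower). Lrrc32 was higher by 0.95 ± 0.18 (SE, adjusted p = 0.00164), Il2ra by 0.69 ± 0.13 (0.00210), Foxp3 by 0.51 ± 0.17 (0.0338) and Ctla4 by 0.36 ± 0.12 (0.0413). Il10 was lower by 0.71 on the log2 scale (−0.71 ± 0.21, adjusted p = 0.0195). The call of Foxp3 was lost when anti-LTβR tumor 2, 5, 7 or 8 or combination tumor 1, 5, 6 or 8 was left out (adjusted p up to 0.0686) and with no filter (0.0513). That of Ctla4 was lost without anti-LTβR tumor 2, 5, 6, 7 or 8 or combination tumor 1, 2, 3, 5, 6 or 7 (up to 0.0824), in the joint fit (0.0697), with the replicate block (0.0792) and with no filter (0.0597). Icos, at 0.40 and an adjusted p of 0.0529, passed under edgeR, DESeq2 and the filter of at least 10 in every library, and without anti-LTβR tumor 3 or 7 or combination tumor 2, 4 or 8 (down to 0.0271).

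The single agents were also set against each other. Il2ra, Ctla4 and Icos were higher in anti-LTβR than in ADU-S100 tumors, by 0.53, 0.55 and 0.56 on the log2 scale (adjusted p = 0.0450, 0.0441 and 0.0390), where 6.42% of 16649 genes passed (3.38% higher). That share was 2.53 to 8.94% without 1 tumor. These 3 calls were near the threshold. All 3 were lost with the replicate block (adjusted p = 0.0630, 0.0930 and 0.102) and with no filter (0.0639, 0.0623 and 0.0542), and those of Il2ra and Icos in the joint fit (0.0716 and 0.0691). Leaving out 1 tumor removed the call of Il2ra for ADU-S100 tumors 2, 3, 4, 5 and 7 and anti-LTβR tumors 1, 2, 3, 4, 6 and 7 (adjusted p up to 0.0903). It removed that of Ctla4 for ADU-S100 tumors 1 to 6 and anti-LTβR tumors 1, 3, 4, 6, 7 and 8 (up to 0.0854), and that of Icos for ADU-S100 tumors 1, 2, 4 and 5 and anti-LTβR tumors 3, 4, 6, 7 and 8 (up to 0.0757). Foxp3 was higher by 0.47 (adjusted p = 0.117).

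The difference of the combination from the sum of both single-agent differences was tested as an interaction over all 32 tumors. It was above 0 for Foxp3 (0.97 ± 0.25, SE, adjusted p = 0.00833), Il2ra (0.75 ± 0.23, 0.0244), Ctla4 (0.68 ± 0.20, 0.0197) and Lrrc32 (1.33 ± 0.23, 0.000521) on the log2 scale. For Il10 it was below 0 (−0.89 ± 0.29, adjusted p = 0.0312). These were 5 of 9 members, against 18.4% of 17649 genes (7.33% above 0 and 11% below). Of all interaction calls 39.9% were above 0, and that share was 49.3% with edgeR and 51.6% with DESeq2 on recovered reads. Icos (0.51, adjusted p = 0.141), Ccr8 (0.30, 0.496), Ikzf4 (0.26, 0.420) and Ikzf2 (−0.15, 0.571) did not pass. The call of Il10 was lost without untreated tumor 2, ADU-S100 tumor 2 or 5 or anti-LTβR tumor 8, with an adjusted p up to 0.0548.

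T cell genes in general were also higher in combination tumors. All 4 genes of the CD3 complex on the list rose (Cd3e 1.01, Cd247 0.85, Cd3d 0.78 and Cd3g 0.60 on the log2 scale), as did Cd4 (1.16, from 104 ± 32.8 to 227 ± 34.4 normalized counts), Cd8a (0.89) and the pan-leukocyte gene Ptprc (0.59). The members were therefore set against the mean log2 level of the 4 CD3 genes in the same tumor, a scale on which the median of all genes moved by −0.83 and 73.5% of genes were called (71.8% lower). Of the members 2 were lower on that scale, Il10 (−1.68 ± 0.28, SE, adjusted p = 8.73e-05) and Ikzf2 (−0.93 ± 0.20, 0.000470). Foxp3 differed by −0.28 (95% interval −0.82 to 0.27, adjusted p = 0.348), Ctla4 by −0.22 (−0.59 to 0.14, 0.260), Icos by 0.04 (−0.36 to 0.44, 0.857) and Ccr8 by −0.15 (−0.60 to 0.31, 0.559). Il2ra was at 0.35 (−0.12 to 0.82, adjusted p = 0.169), and passed without untreated tumor 7 (0.0211). Ikzf4 (−0.44, adjusted p = 0.0639) passed as lower without untreated tumor 2 or 3 or combination tumor 1 (down to 0.0346). Set against Cd4 alone, 6 of 9 members were lower, where 83.2% of all genes were called (82.7% lower) and the median of all genes was −1.18. Foxp3 was at −0.63 on that scale (adjusted p = 0.0129), nearer 0 than that median, and Il2ra was at −0.0038 (adjusted p = 0.989). Set against Ptprc, Il2ra was higher by 0.57 (adjusted p = 0.00677), Il10 and Ikzf2 stayed lower, and Foxp3 was at −0.06 (0.795). On that scale 72.2% of genes were called (743 of 16909 higher) and the median of all genes was −0.60.

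**Figure D4:**
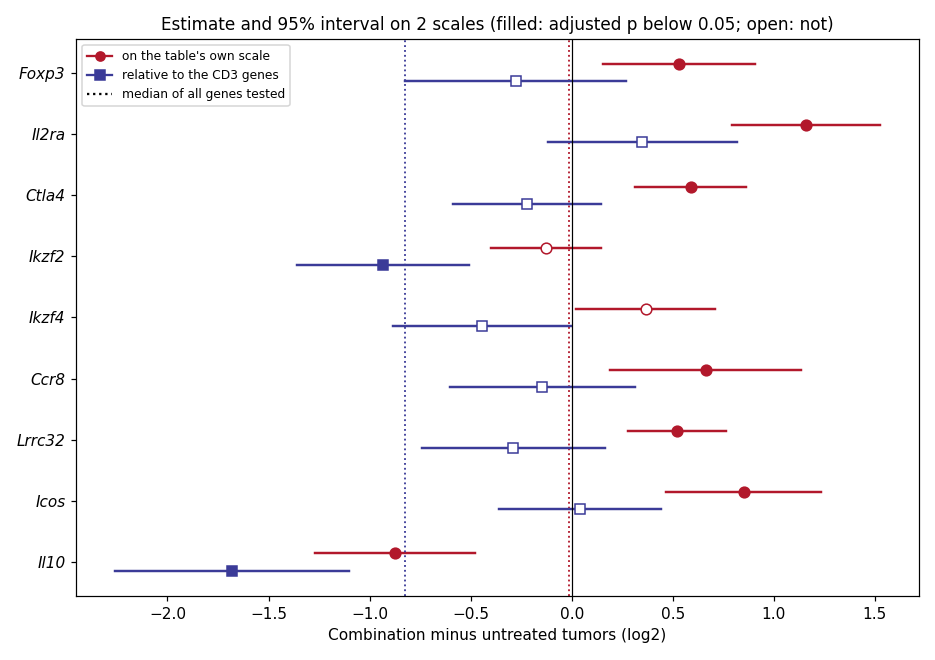
Log2 difference of each gene between combination and untreated tumors with its 95% interval, on the scale of the table (circles) and relative to the mean of the 4 CD3 genes in the same tumor (squares); filled symbols have an adjusted p below 0.05 and dotted lines are the medians of all genes. Il10 was lower on both scales, and the 6 members that rose had intervals that included 0 relative to the CD3 genes.

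In anti-LTβR tumors 3 members were lower relative to the CD3 genes, Lrrc32 (−0.95, adjusted p = 0.00695), Ikzf2 (−0.48, 0.0306) and Il10 (−0.68, 0.0401), where 53.6% of genes were called (53.1% lower) and their median was −0.51. The call of Ikzf2 was lost without untreated tumor 1, 7 or 8 or anti-LTβR tumor 4, 7 or 8 (adjusted p up to 0.0678). That of Il10 was lost without untreated tumor 1, 4, 7 or 8 or anti-LTβR tumor 2, 3, 4, 6, 7 or 8 (up to 0.0880), and relative to Ptprc (−0.53, adjusted p = 0.0846). Foxp3 (−0.50, adjusted p = 0.0973) passed as lower without anti-LTβR tumor 1 (0.0444). Set against Cd4, Lrrc32 alone of the 9 was lower (−0.87, adjusted p = 0.0452), with Ikzf2 at −0.41 (0.157) and Il10 at −0.61 (0.114), where 1.27% of all genes were called (1.23% lower) and their median was −0.44.

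The pathway around IL-2 and its receptor was read next. The counts of called genes in this and the further lists stand against the 19.6% of all genes that were higher and 23.6% that were lower between combination and untreated tumors, and their medians against −0.02. Of the 6 tested genes of the IL-2 list, 5 were higher in combination than in untreated tumors and none lower, with a list median of 0.28. Il2rg, the common γ chain, rose by 0.92 ± 0.13 (SE) and Il2rb, the β chain that signals, by 0.57 ± 0.14 on the log2 scale. The kinase gene Jak3 (0.28) and the transcription factor genes Stat5a (0.23) and Stat5b (0.27) rose less, and Jak1 was at 0.05 (adjusted p = 0.425). Il2 itself failed the filter on low values, at 0 to 2.99 normalized counts in untreated and 0 to 4.03 in combination tumors, so a difference in the ligand was not detectable at this depth.

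Of 12 factors known to act on Foxp3, 5 were higher and 3 lower, with a list median of 0.21, and the share lower was near that of all genes (23.6%). Satb1, a chromatin organizer, rose by 1.09, Nr4a3, a nuclear receptor induced by T cell receptor signals, by 0.77, and Nfatc2, an NFAT factor, by 0.56 on the log2 scale. Foxo3 (0.45) and Rel (0.37) also rose. Smad3, which carries TGF-β signals, fell from 3608 ± 335 to 2202 ± 260 normalized counts (−0.71 ± 0.08, SE, adjusted p = 1.09e-05), and Runx1 (−0.43) and its partner Cbfb (−0.16) fell too. These genes are expressed in many cell types, and their part in Foxp3 was not tested.

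Costimulatory and chemokine partners followed the receptors in part. Of the 4 genes listed as partners of CTLA-4 and ICOS, 3 rose and none fell (list median 0.40): Cd28 by 1.36 ± 0.17 (SE, from 49.9 ± 12.8 to 129 ± 30.7), Icosl, the ICOS ligand, by 0.47, and Cd86 by 0.33, while Cd80 was at 0.28 (adjusted p = 0.0753). Of 4 tested genes of the CCR8 and CCR4 axis, 2 rose (list median 0.45), the CCR8 ligand genes Ccl1 (0.92, from 10.9 to 20.9 normalized counts) and Ccl8 (0.79). Ccl22 (0.12, adjusted p = 0.574) and Ccl17 (0.01, 0.980), whose products bind CCR4, did not pass, and Ccr4 failed the filter.

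The TGF-β1 genes around GARP split. Of 6 tested, 3 rose and 2 fell, with a list median of 0.19. Tgfb1, the cytokine that GARP holds, fell from 5957 ± 388 to 4471 ± 477 normalized counts (−0.42 ± 0.06, SE, adjusted p = 0.000109), and Itgav, an integrin chain that releases it, by 0.49 on the log2 scale (−0.49). Nrros, which encodes a second TGF-β1 anchor found on myeloid cells, rose by 0.49, and the receptor genes Tgfbr2 and Tgfbr1 rose by 0.45 and 0.24.

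Other genes of activated regulatory T cells rose in 7 of 13 cases and fell in 2, with a list median of 0.51. The ectoenzyme gene Entpd1 (CD39) rose by 0.84 ± 0.13 (SE, from 837 ± 166 to 1496 ± 281), Fgl2 by 0.78, Lag3 by 0.77, Ebi3, an IL-35 subunit, by 0.66, Tnfrsf9 (4-1BB) by 0.62, Tnfrsf4 (OX40) by 0.55 and Tnfrsf18 (GITR) by 0.51. Areg, a growth factor also made by tumor epithelium, fell from 6759 ± 1739 to 2883 ± 646 (−1.22 ± 0.15, SE, adjusted p = 2.68e-05), and Nrp1, also an endothelial and myeloid gene, by 0.54 (−0.54). Tigit (0.29, adjusted p = 0.252), Klrg1 (0.46, 0.185), Il1rl1 (0.14, 0.549) and Nt5e (−0.06, 0.664) did not pass. Many of these genes are shared with activated CD8+ T cells and macrophages.

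**Figure D5:**
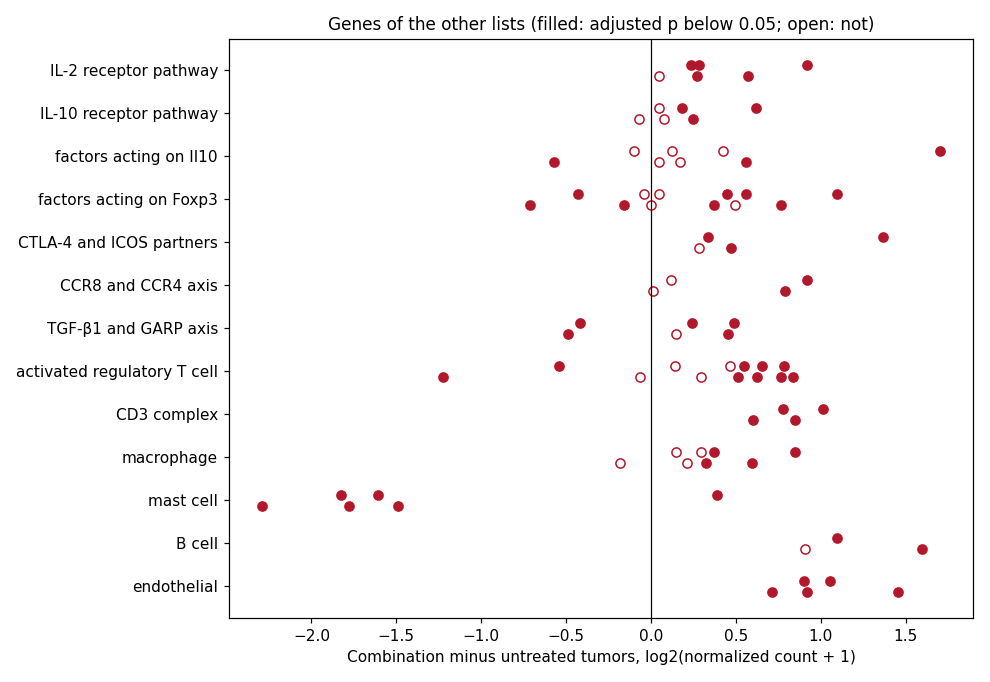
Log2 difference between combination and untreated tumors for each tested gene of 13 lists, 1 point per gene; filled points have an adjusted p below 0.05 and open points do not. CD3, B cell and endothelial genes lay above 0 throughout, while 5 of 6 mast cell genes lay below −1 and the regulators of Foxp3 lay on both sides.

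Of 6 genes of the IL-10 receptor pathway, 3 rose and none fell (list median 0.13), a share called near the 43.2% of all genes. Il10ra, the ligand-binding chain, rose from 832 ± 102 to 1283 ± 208 normalized counts (0.62 ± 0.10, SE, adjusted p = 0.000200), Il10rb by 0.25 and Tyk2 by 0.18. Stat3 (0.08, adjusted p = 0.218) and Socs3 (−0.07, 0.492), a STAT3 target, did not pass. Of 8 transcription factors known to act on Il10, 2 rose and 1 fell (list median 0.15), a share called near the 43.2% of all genes. Irf4 rose from 105 ± 52.6 to 325 ± 103 (1.70 ± 0.27, SE) and Prdm1 (Blimp-1) by 0.56, and Nfil3 fell by 0.57 on the log2 scale (−0.57). Maf (0.17, adjusted p = 0.119) and Bhlhe40 (−0.10, 0.424), which act in opposite directions on Il10 in T cells, did not pass.

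Marker genes of cell types that can make IL-10 were read in the same comparison. Of 8 macrophage genes, 4 were higher in combination than in untreated tumors (Cd68 0.85, Csf1r 0.60, Adgre1 0.37 and C1qb 0.33) and none lower, a share called near the 43.2% of all genes, with summed levels of 17475 to 32206 in untreated and 23257 to 35610 in combination tumors. Of 3 B cell genes, 2 were higher (Cd79a 1.6 and Cd79b 1.10) and none lower, with sums of 59.2 to 214 and 122 to 606. Most mast cell genes were lower, as was Il10. Of 6 tested, Tpsb2 (−2.29), Mcpt4 (−1.83), Cma1 (−1.78), Fcer1a (−1.61) and Cpa3 (−1.49) were lower and Kit (0.39), which other cells also express, was higher, with sums of 591 to 1386 in untreated and 247 to 543 in combination tumors. No gene of these lists was at 0 in every tumor of a group. In anti-LTβR tumors the mast cell sum was as low, 171 to 339 with 5 of 6 genes lower, where 1352 of 16691 genes were lower. Il10 there differed from untreated tumors by −0.16 (95% interval −0.67 to 0.34, adjusted p = 0.654). The part of mast cells or other cell types in the Il10 difference was not tested.

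Levels of different genes were compared per kilobase of exon (GENCODE, GRCm38). In untreated tumors the mean ran from 60.8 normalized counts per kilobase for Lrrc32 through Ctla4 (38.9), Icos (30.6), Il10 (27.5), Ccr8 (15.8), Ikzf2 (15.1) and Il2ra (13.0) to Foxp3 (9.94) and Ikzf4 (5.90). In combination tumors Il10 (14.2) was at about the level of Foxp3 (14.4) and Ikzf2 (13.9), and Il2ra (28.7) was above Ccr8 (24.4). Lrrc32 (88.0), Ctla4 (57.4) and Icos (54.4) stayed at the top. These levels across genes were not tested.

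Within groups the members varied together only in part. After each group's mean was subtracted, the Pearson correlation over the 32 tumors was highest for Foxp3 with Il2ra (r = 0.56) and Ikzf2 with Ccr8 (0.49) and lowest for Ccr8 with Lrrc32 (−0.31), and for Foxp3 with Il10 it was 0.13. The points share library depth and the cell mix of each tumor. With the mean of the CD3 genes, r was 0.61 for Ccr8, 0.46 for Icos, 0.37 for Ctla4, 0.04 for Il2ra and −0.08 for Foxp3. With the endothelial genes, r was 0.52 for Ikzf4, 0.51 for Icos, 0.46 for Lrrc32 and 0.41 for Foxp3, whose highest value over the lists this was. Lrrc32 had r = −0.30 with the CD3 genes. Il10 had r = 0.38 with the CCR8 and CCR4 axis, its highest value over the lists. It had 0.36 with the mast cell genes, 0.14 with the CD3 genes and 0.07 with the macrophage genes. The mast cell genes had r = 0.39 with Lrrc32 and 0.29 with Foxp3.

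Among 17648 genes compared in the same way over 32 tumors, the 5 whose pattern was most like that of Foxp3 were Gm7353 (r = 0.69), Snrk (0.64), Cxcr3 (0.60), Prdm1 (0.58) and the unnamed gene ENSMUSG00000120789 (0.57). Those most like Il10 were Il24 (r = 0.71), 2310009B15Rik (0.70), Has1 (0.68), Gm26682 (0.65) and Gm17322 (0.64). None of the other members was among them. These are the highest of 17648 values for each gene, and how high the top values reach by chance was not tested. Il24, another cytokine gene of the IL-10 family, lies on the same chromosome as Il10 (chromosome 1, 130882074 to 130887454 in GRCm38).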

How the data were processed

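Bulk poly(A) RNA-seq of 32 tumors in 4 groups of 8 was analysed, with groups and replicate numbers from the sample labels. The values the authors deposited are a signal, reads of each gene scaled by a size factor of the library. The larger table the authors deposited (52 libraries, 27894 genes) is a signal of the same kind, from which whole reads were recovered (100% of values under 1000 reads whole within 0.05 of a read, though in some libraries the worth of a read lies too close to 1 to be told from rounding). The submitters' processing notes name cutadapt 1.9, HISAT2, StringTie, STAR and Partek. Which aligner made each table is not given in the sources used here, and coordinates printed are GRCm38 (GENCODE), not the build of the table. The authors' own gene set results, also deposited, were not used. Per-sample columns left unused number 0. The depth per tumor is in the text above, and counting error covers sampling of reads only.

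Each comparison used the trend test of limma 3.58.1 in R 4.3.3 on log2(normalized count + 1) with its own 16 tumors, all genes that passed filterByExpr (edgeR 4.0.16, count minimum of 10) and Benjamini-Hochberg adjustment over those genes. Fold changes on this scale understate those of low genes. The interaction used all 32 tumors. For the relative scale the mean log2 of Cd3d, Cd3e, Cd3g and Cd247 in a tumor was subtracted from every gene of that tumor. Alternatives were edgeR (quasi-likelihood, TMM) and DESeq2 1.42.0 on recovered reads, no filter, at least 10 in every library, a pseudocount of 0.5, a joint fit, the replicate block, Ptprc or Cd4 as reference, and each tumor left out. Of the fits, only those of limma for combination against untreated tumors and for the interaction were tested on simulated data, and the outcome is not given here.

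The members and lists were chosen with earlier results of these data known. All members were named, and of each list up to 4 genes with the smallest adjusted p among those called, plus Il2, Il2rb, Il10ra, Cd4, Cd3e, Ptprc and Cd8a, and the 5 genes with the highest within-group correlation with Foxp3 and with Il10. Further list genes were named after their values were seen. The labels do not tie replicate numbers to litters or days, nor say that each tumor came from its own mouse, so p-values measure the spread between these tumors. Some items of the lists and of the tumor line are not reported here.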

Additional observations from a re-analysis of the deposited data

Results flagged for a closer look

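Among 36 tests of the 9 genes in 4 groups of 8 tumors, 2 tumors stood apart from their group by the gap to the nearest tumor over the group's range, and chance flags about 1 in 20 groups. Ikzf2 in combination tumor 5 was at 102 normalized counts, below the other combination tumors. Il10 in combination tumor 4 was at 25.8, above the others.

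The effect of one agent differed with the other agent present for 5 genes, by the interaction on the log2 scale: Foxp3 (0.97), Il2ra (0.75), Ctla4 (0.68), Lrrc32 (1.33) and Il10 (−0.89). These were 5 of 9, where 18.4% of 17649 genes passed, and the call of Il10 was lost in 4 fits without 1 tumor (adjusted p up to 0.0548). In a separate experiment with 5 combination libraries, 1 of the 9 genes had a library apart from the others by the same measure: Foxp3 in replicate 3 was at 669 normalized counts, and the median of the 5 was 154. That library held 8716257 reads, against 18028314 to 18789131 in the other 4, and 1 read was worth 3.78 normalized counts in it, against 0.817 to 0.959. In reads, Foxp3 was at 177 there and at 38 to 191 in the other 4, before any adjustment for depth.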

How the results depend on the processing

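All 7 calls between combination and untreated tumors held in each of 7 other settings and in all 16 fits without 1 tumor. Of 1913 member values recomputed under other settings or without 1 tumor, 1751 kept direction and side of the threshold, 86 lost the threshold, 27 gained it and 49 changed sign. The count of members called in anti-LTβR against untreated tumors, 0, became 1 in the joint fit (Il2ra) and with the replicate block (Lrrc32), and was 0 to 1 without 1 tumor, and the share of all genes called was 15.3%, 19.1% in the joint fit and 9.95% with the block, and fell by over 1.5 times without untreated tumor 1 (9.4%) or anti-LTβR tumor 7 (9.9%). Combination against anti-LTβR, 5, became 3 with no filter (Foxp3 and Ctla4 lost), 4 in the joint fit and with the replicate block (Ctla4 lost), and 6 under edgeR, DESeq2 and at least 10 in every library (Icos gained), and was 3 to 6 without 1 tumor. Of all genes 26.6% were called, 14% with no filter, 23.6% in the joint fit, 26.9% with the block and 24.3 to 29.2% in the last 3 settings. Anti-LTβR against ADU-S100, 3, became 0 with no filter, 1 in the joint fit and 0 with the replicate block, and was 0 to 3 without 1 tumor, while the share of all genes called fell from 6.42% to 2.58%, 2.69% and 2.67%, and by over 1.5 times without ADU-S100 tumor 2 (2.53%), 3 (4.25%), 4 (3.15%) or 5 (3.61%) or anti-LTβR tumor 4 (3.4%), 6 (2.71%) or 7 (3.61%). The numbers were not taken to pair the tumors, since the correlation of deviations between same-numbered tumors averaged 0.0181 for combination against untreated tumors, and −0.0855 to 0.186 over all 6 comparisons (0.173 for combination against anti-LTβR). In every comparison it was below 0 in some pairs, with 0 to 3 of 8 numbers correlating best with their own. Against Cd4 in place of the CD3 genes, the members called were 6 in combination and 1 in anti-LTβR tumors (2 and 3 against the CD3 genes), where 83.2% and 1.27% of all genes were called (73.5% and 53.6% against the CD3 genes), and against the CD3 genes without 1 tumor the count in anti-LTβR tumors was 1 to 4.

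No value that changed sign passed the threshold on either side. Relative to Cd4, Il2ra was at −0.0038 and Icos at −0.31 in combination tumors, and Il2ra at 0.024 and Icos at 0.0018 in anti-LTβR tumors. Relative to Ptprc, Ctla4 was at 3.86e-05 and Ccr8 at 0.075 in combination tumors, and Il2ra at 0.10, Ccr8 at 0.0055 and Icos at 0.080 in anti-LTβR tumors. Without 1 tumor the ranges that crossed 0 were −0.075 to 0.10 (Foxp3) and −0.031 to 0.095 (Ikzf2) in anti-LTβR against untreated tumors. In ADU-S100 against untreated tumors they were −0.15 to 0.016 (Il2ra), −0.090 to 0.035 (Ikzf2), −0.086 to 0.041 (Ikzf4), −0.12 to 0.095 (Ccr8) and −0.20 to 0.0010 (Icos), and in anti-LTβR against ADU-S100 tumors −0.15 to 0.047 (Lrrc32). Relative to the CD3 genes they were −0.040 to 0.11 (Icos) in combination tumors, and −0.14 to 0.11 (Il2ra) and −0.15 to 0.0013 (Icos) in anti-LTβR tumors. The cause of these changes was not tested. At group means of 17.8 to 40.5 normalized counts, Ccr8 and Il10 have counting errors of 16.1 to 24.2% of the mean, which limits small differences.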

Other observations

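The deposited data hold 20 libraries of another experiment. The labels of 15 contradict each other, so these were placed in no group, and 5 are labelled throughout as combination. None entered a comparison, and their values come from the larger table, which was normalized separately. Over the 15, Foxp3 ranged from 20.8 to 146 normalized counts (median 53.6), Il2ra from 47.2 to 274 (median 129) and Il10 from 14.2 to 96.7 (median 33.5). Over the 5 combination libraries, Foxp3 ranged from 36.5 to 669, Il2ra from 83.1 to 261 (median 164) and Il10 from 29.1 to 68.0 (median 48). Lrrc32 reached 1549 (median 519). The highest Foxp3, Lrrc32 and Il10 and the lowest Il2ra values were all of replicate 3, the library of 8716257 reads in which 1 read was worth 3.78 normalized counts, and Lrrc32 was at 410 reads there and at 164 to 776 in the other 4.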
